A study of Mus musculus with 32 samples.

Results

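The loci of the initiator methionine tRNA, tRNA-iMet-CAT, were described in ATAC-seq data from mouse brain and liver. Members were all loci whose name begins with tRNA-iMet-, which gave 9 of the 401 tRNA loci measured: tRNA-iMet-CAT-1-1 to 1-7, tRNA-iMet-CAT-2-1 and tRNA-iMet-CAT-3-1, written below as 1-1 to 1-7, 2-1 and 3-1. In ATAC-seq a transposase cuts and tags open DNA, so the reads at a locus measure how accessible its chromatin is and not how much tRNA is made. The 32 libraries came from nuclei of fresh tissue of male C57BL/6N mice, either wild type or homozygous for a CRISPR deletion of a single phenylalanine tRNA gene: tRNA-Phe-GAA-1-1 (called Phe11), tRNA-Phe-GAA-2-1 (Phe21) or tRNA-Phe-GAA-3-1 (Phe31). The study's methods give the wild-type controls as matched to the knockouts by age and litter, and also say that mice from different litters were used. Its reporting summary gives the mice as 10 weeks old and the study as a whole as using both sexes. The brain set held 5 wild-type, 4 Phe11, 3 Phe21 and 3 Phe31 libraries. The liver set held 7 wild-type, 4 Phe11, 3 Phe21 and 3 labelled Phe31. No deletion in the study was placed in an initiator gene, so these loci stood among those asked whether the loss of 1 phenylalanine gene moves the accessibility of other tRNA genes.

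The initiator tRNA carries methionine to the start codon. It is delivered to the small ribosomal subunit by the factor eIF2, whereas the elongator methionine tRNA, which reads the same codon inside the message, is delivered by eEF1A. Initiators differ from elongators in an A:U pair at the end of the acceptor stem and in a run of G:C pairs next to the anticodon loop. Both kinds are transcribed by RNA polymerase III from promoter elements that lie inside the gene, and several copies of the gene with the same sequence can be spread over the genome.

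The sequences below are shown because the copies are nearly alike, which bears on how reads were placed. A search of the GRCm39 genome for genes of 72 nt with the initiator's stems and the anticodon CAT found 9 genes with 3 distinct sequences. One sequence was shared by 7 genes, and each of the other two occurred in 1 gene. The capitals mark the anticodon in the first line and the base that differs from it in the other two lines, with positions counted from 1 at the 5′ end of the gene.
Sequence of 7 genes: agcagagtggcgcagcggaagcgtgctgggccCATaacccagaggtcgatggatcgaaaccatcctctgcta
Variant with G51A, chr13:22091281-22091352 on the plus strand (GRCm39): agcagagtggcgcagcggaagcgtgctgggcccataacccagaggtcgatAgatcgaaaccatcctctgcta
Variant with G23A, chr15:69268472-69268543 on the minus strand (GRCm39): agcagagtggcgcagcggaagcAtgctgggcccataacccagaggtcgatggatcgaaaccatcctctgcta
The G51A variant had 4 pairs in the T stem, where the other 8 genes had 5. Outside the gene the copies were unlike each other. Over the 36 pairs of genes, the 50 nt upstream matched at 14% to 44% of positions (median 30%) and the 50 nt downstream at 16% to 44% (median 31%), position by position with no gaps. A fragment that reaches into a flank can therefore be told apart between copies, and one that lies inside the shared 72 nt cannot. The authors kept alignments above a minimum mapping quality, and how many fragments inside the copies were lost or divided was not tested, so the split of reads among 1-1 to 1-7 carries that uncertainty.

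The RefSeq annotation of GRCm38.p6, the build of the study, likewise held 9 genes of 72 nt among its 16 genes for CAT methionine tRNA, the other 7 being 73 nt long. Of the 9, 7 lay on chromosome 13, 1 on chromosome 3 and 1 on chromosome 15. The 7 genes on chromosome 13 spanned 1819426 bp, and all 6 gaps between them had the same length in both builds. None lay inside a protein-coding gene. The gene on chromosome 3 (n-TMcat11, chr3:90475860-90475931) was 270 bp from Ilf2, the gene of an interleukin enhancer-binding factor, with no other tRNA gene within 10000 bp. The chromosome 13 genes stood in the region of histone and tRNA genes: n-TMcat9 (chr13:23530348-23530419) was 625 bp from the histone gene H4c8 and lay inside Gm11335, a gene that is not protein-coding, and n-TMcat10 (chr13:21931169-21931240) had 7 other tRNA genes within 10000 bp. The gene on chromosome 15 (n-TMcat3, chr15:69396623-69396694) was the most isolated, 294829 bp from Khdrbs3. The classes of 7, 1 and 1 genes have the same sizes as the names 1-1 to 1-7, 2-1 and 3-1, but the files do not pair names with positions, and no name was given a position here.

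Consensus peaks, the regions that the authors called open in each comparison, covered 5 of the 9 genes in all 6 lists: n-TMcat11 on chromosome 3 and n-TMcat7, n-TMcat8, n-TMcat6 and n-TMcat9 on chromosome 13. The gene n-TMcat2 (chr13:21907111-21907182), whose place in the chromosome 13 order is that of the G51A variant, lay under a peak in all 3 brain lists and in none of the 3 liver lists. The gene n-TMcat10 lay under a peak in 1 list, that of Phe11 brain, and n-TMcat5 (chr13:23500080-23500151) and n-TMcat3 in 0 lists. The brain lists were longer, with 215211 to 269579 peaks against 101338 to 125852 in liver, and the part of list length in this difference was not tested. The brain lists covered 7, 6 and 6 initiator genes for Phe11, Phe21 and Phe31, and each liver list covered 5. The 7 elongator genes were covered in 6 cases by each brain list and in 5 or 6 cases by the liver lists.

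Depth over the 401 loci ran from 20315 to 35565 recovered reads in the 15 brain libraries and from 4719 to 23754 in the 17 liver libraries, of which 456 to 768 and 126 to 597 fell on the 9 initiator loci. The tissue labels held at tRNA-Arg-TCT-4-1, a gene known for expression in the nervous system, with 101 to 147 jointly scaled reads in brain and 0.806 to 21.5 in liver. Among marker genes with an entry in the table of gene starts, 3 of 4 brain genes (Syt1, Rbfox3 and Olig2, but not Gfap) had a peak at the start in all 3 brain lists, and all 6 liver genes had one in all 3 liver lists. Syt1 also had one in 2 liver lists and Apoa2 in 2 brain lists. The deleted locus was at 34.0% and 14.4% of wild type in Phe11 brain and liver, 7.02% and 6.83% in Phe21, and 4.82% in Phe31 brain. In the livers labelled Phe31, tRNA-Phe-GAA-3-1 stood at 75.4% of wild type and tRNA-Phe-GAA-1-1 at 9.95%, which goes against the label, so these are called the livers labelled Phe31 throughout. Wild-type liver replicates 1 and 22 differed by less than the sampling noise (chi-square per degree of freedom 0.437 over 191 loci) and were counted as 1 sample in each mean, SD and n. In 1 figure the study names as many control mice for liver as there are numbered wild-type livers, and in its knockout comparisons fewer. The counting goes against the first of these, so the value of each library is also given for the loci that results turn on. The pairs 3 and 24 of liver (0.667) and 3 and 18 of brain (0.726) were also closer than sampling noise among the 55 pairs of one group, and values with these pairs averaged are given where a result rests on them.

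In brain, 1-1 was the most accessible initiator locus and 2-1 was close to unread. Levels are given as jointly scaled reads, the recovered reads of a library divided by 1 size factor estimated over all 32 libraries. All 9 genes have the same length, so no length correction was needed, but the order of the levels below is subject to the uncertain placing of fragments among the near-identical copies. In the 5 wild-type brains, 1-1 had 114, 101, 117, 115 and 121 scaled reads in replicates 1, 2, 3, 16 and 18, a mean of 114 ± 7.55 (SD, n = 5). Replicate 2 was the lowest, and all 5 lay above every other member. The next in order were 1-4 with 62.1 ± 5.09 and 1-6 with 57.5 ± 4.92, whose ranges overlapped, so that this pair could not be ordered. Below them stood 1-2 with 43.6 ± 5.06, then 1-7 with 28.7 ± 3.81, then 3-1 with 15.1 ± 4.18 (all n = 5), and none of these ranges overlapped with its neighbour. The 2 loci 1-3 (6.54 ± 1.33) and 1-5 (4.66 ± 1.40) overlapped with each other and lay above 2-1 in all 5 libraries. The locus 2-1 had 0 to 2 reads a library, which is at or under the limit of 3 reads that a count of 0 allows.

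Set among all loci of wild-type brain, 1-1 ranked 31 of 401 from the top, 1-4 ranked 90, 1-6 ranked 97 and 1-2 ranked 134. The locus 1-7 (rank 179) was above the median of the 401 loci, which was 21.7 scaled reads, and 3-1 (rank 222) was below it. The remaining 3 loci ranked 256, 264 and 340.

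In liver the order changed at the top. In the 4 numbered wild-type livers, 1-4 had 104, 90.5, 106 and 106 scaled reads in replicates 1, 3, 22 and 24, a mean of 100 ± 8.58 (n = 3 with replicates 1 and 22 as 1), and it lay above 1-1 in all 4 libraries. The locus 1-1 had 70.1, 75.4, 59.8 and 70.6 in the same libraries, a mean of 70.3 ± 5.23, and overlapped with 1-2 at 61.0 ± 7.51. The loci 1-7 (36.03 ± 6.49) and 1-6 (30.1 ± 4.91) also overlapped with each other and lay below 1-2 in every library. The other 4 members had 0 to 3 reads a library, and their order could not be told. Among all loci of the numbered wild-type livers, 1-4 ranked 36 of 401 and 1-1 ranked 68.

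The 3 wild-type livers a, b and c, whose columns in the deposited table could not be matched to their sample numbers and which were compared only with the livers labelled Phe31, stood apart from the numbered ones over all loci. At the initiator loci they had 107 ± 4.73 scaled reads at 1-4, 92.2 ± 17.9 at 1-1, 57.2 ± 12.9 at 1-2, 40.7 ± 8.24 at 1-7 and 40.0 ± 4.67 at 1-6 (n = 3 each). Here 1-1 reached 113 in library a, and its range overlapped with that of 1-4.

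**Figure D1:**
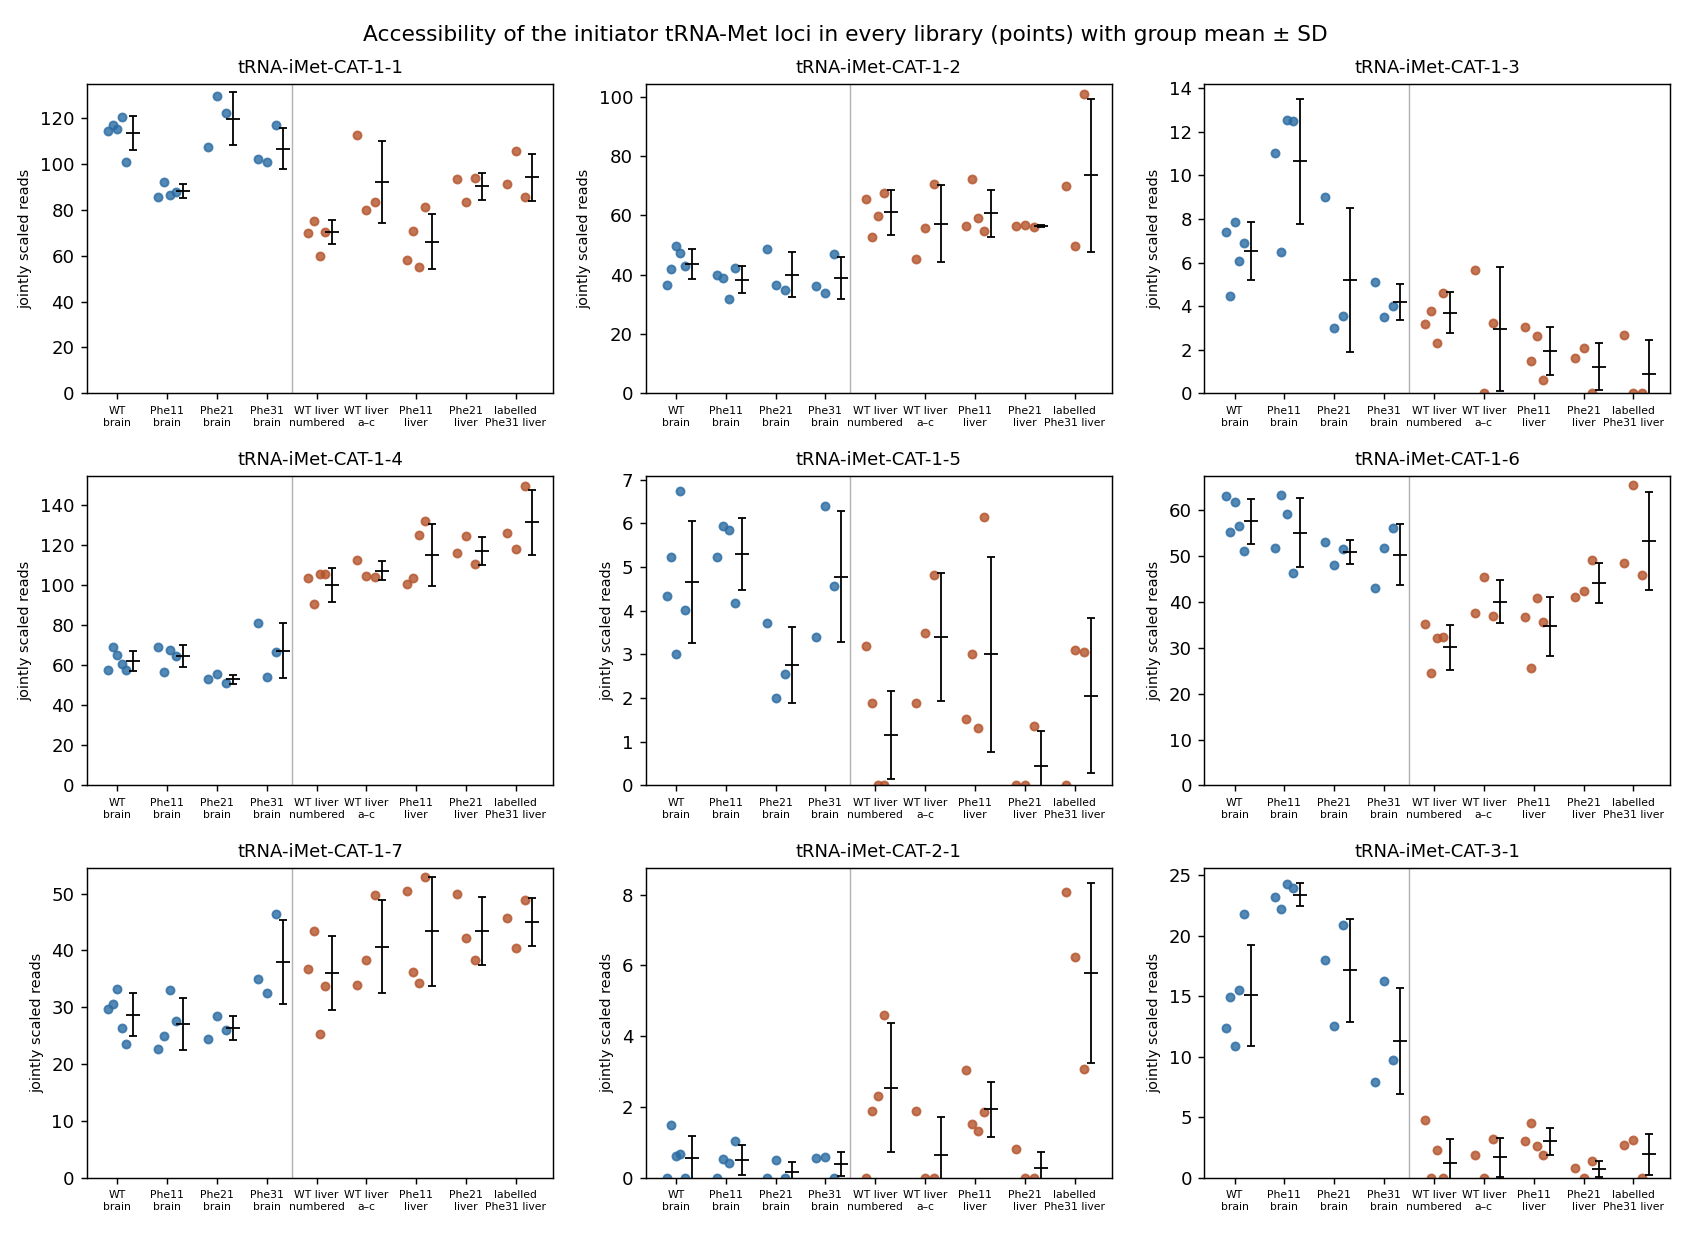
Jointly scaled reads (y axis, linear, different range in each panel) at the 9 initiator loci in every library, by tissue and genotype (x axis), brain in blue and liver in orange. Points are libraries and bars the mean ± SD, with wild-type liver replicates 1 and 22 shown as 2 points and counted once in the bar. The locus 1-4 sat higher in all 17 livers than in the 15 brains, and 3-1 was read in all brains and nearly unread in liver.

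The sum of the 9 loci was close in both tissues while its make-up differed. The family took 2.22% ± 0.125 of all tRNA-locus reads in wild-type brain (n = 5) and 2.07% ± 0.0850 in the numbered wild-type livers (n = 3). On the joint scale this was 332 ± 15.4 and 306 ± 12.6 scaled reads. Within the family, 1-1 gave 34.2% ± 1.21 of the reads in wild-type brain and 23.0% ± 2.34 in the numbered livers, whereas 1-4 gave 18.7% ± 1.08 and 32.8% ± 1.82. These shares do not depend on how libraries are scaled against each other. The reads of 1-1 divided by those of 1-4 gave a ratio between 1.24 and 2.4 in the 15 brain libraries (median 1.75) and between 0.442 and 1.00 in the 17 liver libraries (median 0.681), so the ranges of the tissues did not overlap across all genotypes. The 5 loci 1-1, 1-2, 1-4, 1-6 and 1-7 together held 86.6% to 94.8% of the family's reads in brain and 96.5% to 99.4% in liver.

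**Figure D2:**
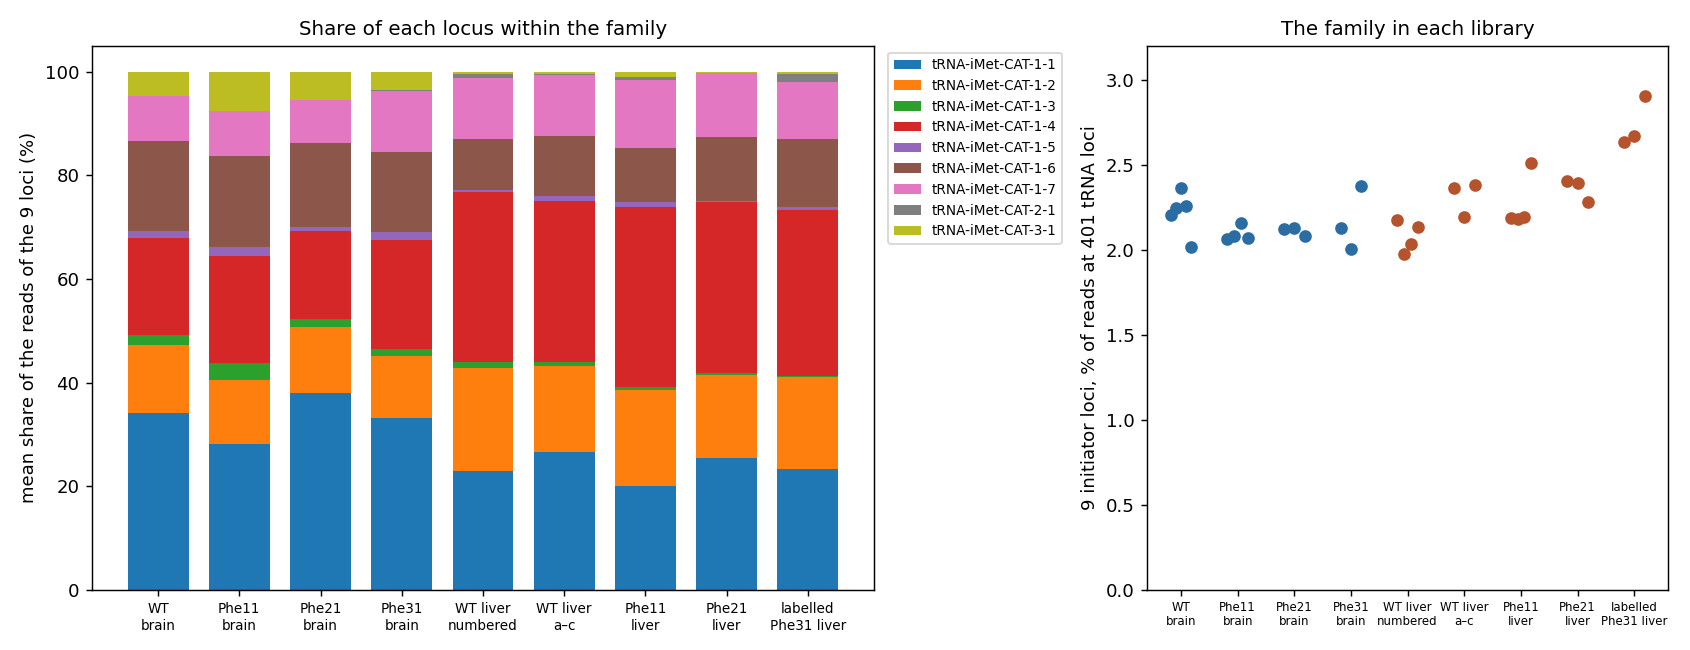
Left, the mean share of each locus in the reads of the 9 initiator loci (y axis, percent) for each tissue and genotype (x axis). Right, the reads of the 9 loci as a percent of the reads at all 401 tRNA loci in each library. The 1-1 segment was the largest in the 4 brain groups and the 1-4 segment in the 5 liver groups, while the family's total stayed between 1.98% and 2.90% of reads.

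Brain and liver of wild-type mice were compared directly over the 239 loci with a mean of at least 10 scaled reads, with batch as a term and with the numbered libraries (5 brains and 4 livers). Differences are brain minus liver in log2(value + 1), which understates the change of loci with few reads, and were tested with limma and Benjamini-Hochberg adjustment over all loci tested. Tissue moved much of the table: 69.5% of loci passed an adjusted p of 0.05, 100 higher and 66 lower in brain. Of the 9 initiator loci, 5 were tested and 4 passed, 2 in each direction, and the medians were -0.27 over the 5 members and 0.18 over all loci. Higher in brain were 1-6 by 0.89 ± 0.13 (SE, adjusted p = 3.78e-05) and 1-1 by 0.71 ± 0.09 (adjusted p = 1.08e-05). Lower in brain were 1-4, which fell by 0.69 ± 0.10 (adjusted p = 1.83e-05), and 1-2, which fell by 0.47 ± 0.12 (adjusted p = 0.00279). The locus 1-7 had a difference of -0.27 ± 0.17 with a 95% interval from -0.64 to 0.10 (adjusted p = 0.178). For 1-2 the call was lost within batch 2 alone (difference -0.39, adjusted p = 0.0718). With the 3 closest pairs of libraries each averaged into 1 sample, these 4 loci still passed (1-6 at 0.85, 1-1 at 0.68, 1-4 at -0.75 and 1-2 at -0.56, limma, highest adjusted p = 0.00757).

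The 4 members with few reads did not reach the minimum mean. The loci 1-3, 1-5 and 2-1 were below 10 scaled reads on average in both tissues, and 3-1 was below it in liver alone, with the widest gap between tissues of the 4. Its jointly scaled level in wild-type brain replicates 1, 2, 3, 16 and 18 was 12.4, 21.8, 14.9, 10.9 and 15.5, and in wild-type liver replicates 1, 3, 22 and 24 it was 4.78, 0, 2.30 and 0. Every brain was above every liver. Over all genotypes it had 463 reads in the 15 brains, with at least 14 in each, and 21 reads in the 17 livers, with 0 in 5 of them and at most 3 in any. As a share of the family's own reads, which does not rest on depth, it took 3.13% to 7.05% in the wild-type brains and 0% to 1.49% in the numbered wild-type livers. With no filter it was higher in wild-type brain by 2.87 ± 0.51 on the log2 scale (limma, adjusted p = 0.000185). In the same fit 1-5 was higher by 1.49 ± 0.44 (adjusted p = 0.00952), from 2, 1, 0 and 0 reads in wild-type livers 1, 3, 22 and 24. Its scaled levels overlapped between tissues, at 3.02 to 6.74 in wild-type brain, 0 to 3.19 in those livers and 1.88 to 4.82 in wild-type livers a to c. The locus 1-3, with 189 reads in all brains and 24 in all livers, had a difference of 0.77 ± 0.37 (adjusted p = 0.0862). The locus 2-1 went the other way in number, with 11 reads in all brains and 20 in all livers (difference -0.81 ± 0.45, adjusted p = 0.136), and stayed at the floor in both tissues. Fitted differences of loci with reads near 0 depend on the pseudocount. In these bulk samples, fewer cells with an open locus and a less open locus in each cell cannot be told apart.

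The same comparison within Phe21 mice gave 3 libraries of each tissue that share no library with the wild-type comparison. Here 61.9% of the 223 loci tested passed, and 4 of the 5 initiator loci did. The locus 1-4 was lower in brain, with 53.0, 55.5 and 51.0 scaled reads in brain replicates 7, 8 and 9 against 116, 125 and 111 in liver, a fall of 1.12 ± 0.11 (limma, adjusted p = 1.2e-18). The p-values of this fit rest mainly on variance that limma pooled over loci (157 degrees of freedom), and little on the spread at each locus. The locus 1-1 was higher in brain by 0.40 ± 0.10 (adjusted p = 0.000161). The loci 1-7 and 1-2 fell by 0.70 ± 0.21 (adjusted p = 0.00229) and by 0.50 ± 0.16 (adjusted p = 0.00328). For 1-6, which was called in wild type, the difference was 0.20 ± 0.16 with a 95% interval from -0.11 to 0.51 (adjusted p = 0.257). The locus 3-1 again split the tissues, at 18.02, 12.5 and 20.9 scaled reads in brain against 0.806, 0 and 1.36 in liver.

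**Figure D3:**
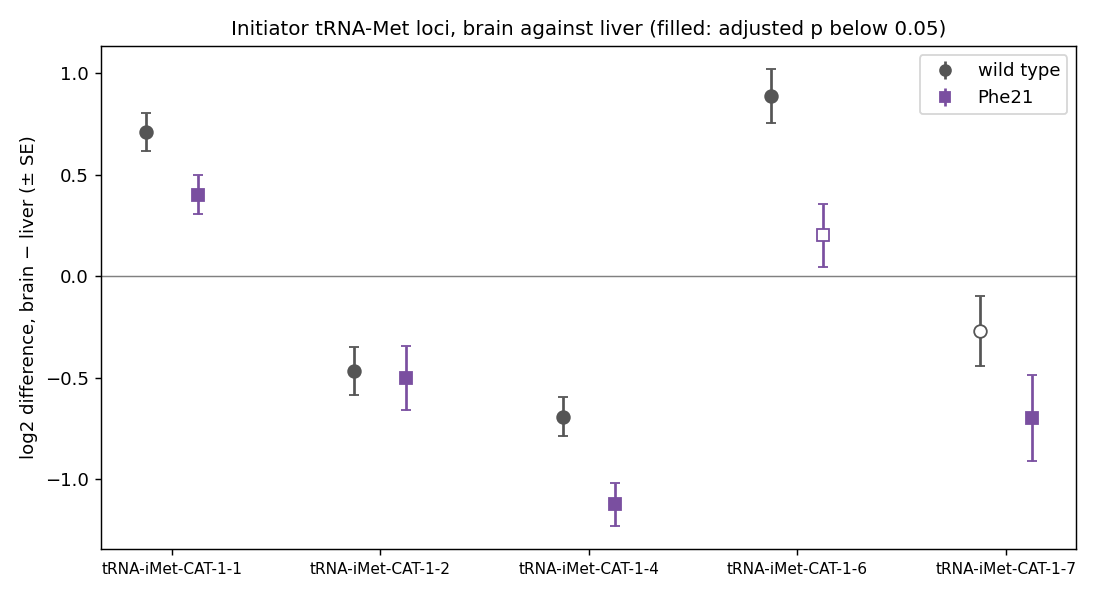
Log2 difference between brain and liver (y axis, positive is higher in brain, ± SE) for the 5 initiator loci that passed the filter, in wild type (grey circles) and in Phe21 (purple squares). Filled symbols have an adjusted p below 0.05. The loci 1-2, 1-4 and 1-7 lay below 0 and 1-1 and 1-6 above it in both genotypes.

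In Phe11 brain, 2 of the 7 initiator loci tested differed from wild type, in opposite directions. The comparison held 4 wild-type and 4 Phe11 libraries from both batches that the labels name for these samples, with batch as a term, and 28.1% of all 263 loci tested passed (39 higher and 35 lower, or 48 and 28 with TMM). The members' share, 2 of 7, was near that of all loci. Values for knockout comparisons are the deposited normalised read counts, scaled within each comparison's own table. The locus 1-1 had 202, 201, 205 and 207 normalised reads in wild-type replicates 1, 3, 16 and 18 and 144, 158, 146 and 148 in Phe11 replicates 5, 6, 13 and 14. All 4 Phe11 brains were below all 4 wild-type brains. The means were 204 ± 3.07 and 149 ± 6.09 (SD, n = 4 each), 73.2% of wild type, and the difference was -0.45 ± 0.07 (SE, limma, adjusted p = 9.27e-06). The wild-type SD is under the counting error of its 157 to 191 reads a library. Within batch 1 the Phe11 mean was 74.99% of wild type and within batch 2 it was 71.5%.

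The locus 3-1 moved the other way. It had 21.8, 25.6, 19.3 and 26.6 normalised reads in the same wild-type libraries and 38.9, 37.9, 41.04 and 40.4 in the Phe11 libraries, so that all Phe11 brains were above all wild-type brains. The means were 23.3 ± 3.37 and 39.5 ± 1.44 (n = 4 each), 169% of wild type, with a difference of 0.75 ± 0.16 (limma, adjusted p = 0.00101). It was 162% of wild type within batch 1 and 177% within batch 2, and the test within batch 1 alone, with 2 libraries a group, gave an adjusted p of 0.130. Both loci had ranges that did not overlap between the groups, which held for 27.8% of the 263 loci.

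The fifth wild-type brain, replicate 2, was not in the deposited table of this comparison. On the joint scale it had the lowest wild-type value of 1-1 (101, against 85.9 to 92.5 in Phe11) and the highest of 3-1 (21.8, against 22.2 to 24.3 in Phe11), in each case nearest to Phe11. With this library added on the joint scale, a setting chosen after seeing the data, 1-1 fell by 0.36 ± 0.07 (limma, adjusted p = 0.000368) and 3-1 rose by 0.65 ± 0.18 (adjusted p = 0.0121). With wild-type replicates 3 and 18 averaged into 1 sample, the differences were -0.45 and 0.81 and both calls stood.

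The other 5 members tested in Phe11 brain did not pass. The locus 1-3 had 11.3 ± 2.84 normalised reads in wild type and 17.96 ± 4.76 in Phe11 (difference 0.62 ± 0.28, adjusted p = 0.0929), and without Phe11 replicate 6 it passed (0.78, adjusted p = 0.0473). The locus 1-2 had 76.3 ± 10.5 and 64.6 ± 7.51 (difference -0.23 ± 0.12, adjusted p = 0.121). Its Phe11 mean was 98.3% of wild type in batch 1 and 73.8% in batch 2, where it passed (adjusted p = 0.0427). The loci 1-7 and 1-6 had differences of -0.20 ± 0.13 and -0.15 ± 0.10 (adjusted p = 0.268 and 0.271). At 1-4 the groups stood at 110 ± 8.60 and 109 ± 8.61, with a 95% interval of the difference from -0.20 to 0.17. The 2 untested members, 1-5 and 2-1, had means of 8.38 and 1.197 normalised reads in wild type and 8.96 and 0.847 in Phe11, and their ranges overlapped. The sum of the 9 loci was 590 ± 19.3 in wild type and 529 ± 11.4 in Phe11, or 89.7%. On the joint scale with all 5 wild-type brains, replicate 2 included, the sums were 332 ± 15.4 (309 to 347) and 313 ± 5.71 (309 to 321), and the ranges overlapped. The share of 3-1 in the family's reads rose with its level, from 4.58% ± 1.49 in the 5 wild-type brains to 7.48% ± 0.255 in Phe11 brain, and that of 1-1 was 34.2% ± 1.21 and 28.2% ± 1.15.

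**Figure D4:**
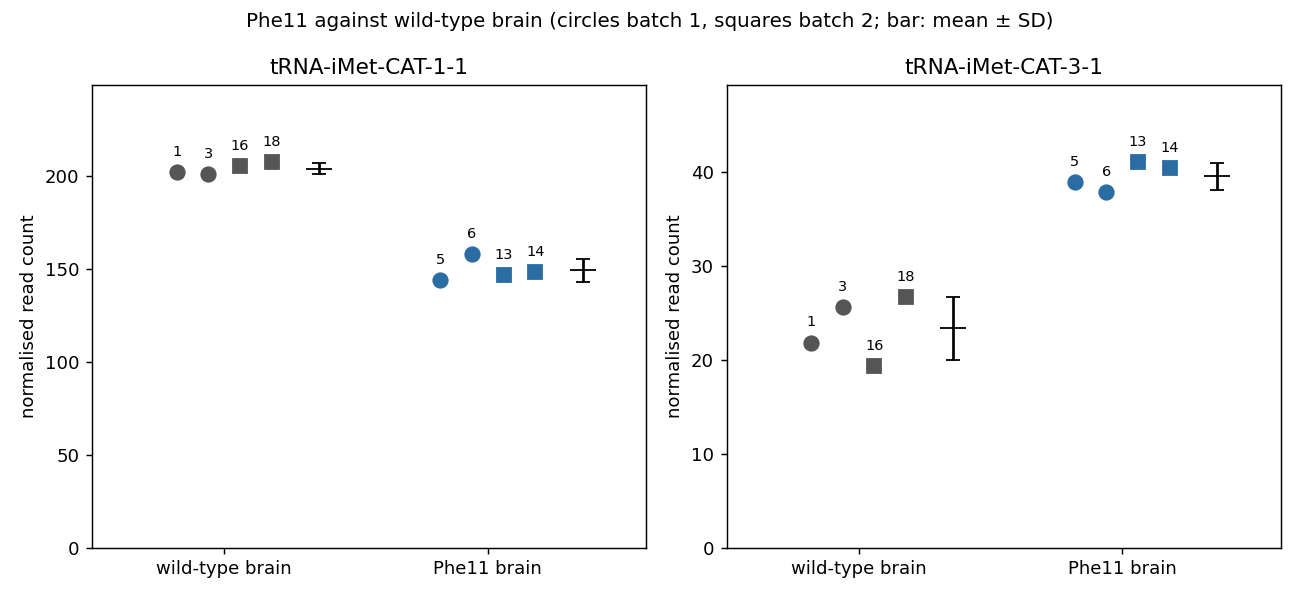
Deposited normalised read counts (y axis, from 0) of 1-1 and 3-1 in wild-type and Phe11 brain. Each point is a library with its replicate number, circles are batch 1 and squares batch 2, and bars give the mean ± SD (n = 4 each). The 4 Phe11 brains sat at 144 to 158 for 1-1, below wild type at 201 to 207, and at 37.9 to 41.04 for 3-1, above wild type at 19.3 to 26.6.

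In Phe21 brain none of the 6 initiator loci tested passed (lowest adjusted p = 0.409), and 0% of the 253 loci in the table did by limma, although 43 loci, 0 of them members, had an unadjusted p under 0.05. By edgeR and by DESeq2 0 members passed as well. The locus 1-1 had 189 ± 16.9 normalised reads in wild type and 212 ± 24.7 in Phe21 (n = 3 each), a difference of 0.16 with a 95% interval from -0.04 to 0.37. The locus 3-1 had 27.7 ± 7.84 and 30.1 ± 6.96 (interval from -0.41 to 0.65). The other 4 differences lay between -0.16 and 0.02. Of the members tested, 0 had ranges that did not overlap, against 24.1% of all loci. Below the filter, 1-5 had 6.72 to 8.87 normalised reads in wild type and 3.62 to 6.42 in Phe21, from 4 to 7 reads a library.

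In Phe31 brain 0 of 6 members passed (0.775% of the 258 loci did, or 2 loci, both lower), and 0 members did by edgeR or DESeq2. The locus 1-7 was the 1 member with an unadjusted p under 0.05. It had 49.3, 37.6 and 49.5 normalised reads in wild-type replicates 1, 2 and 3 and 58.6, 52.7 and 76.6 in Phe31 replicates 10, 11 and 12. The Phe31 brains were all above the wild-type brains, and the difference was 0.45 ± 0.17 (limma, unadjusted p = 0.0185, adjusted p = 0.53). It was 1 of 6 members whose ranges did not overlap, against 11.2% of loci. The locus 3-1 had 26.5 ± 7.44 in wild type and 18.5 ± 6.89 in Phe31 (difference -0.52 ± 0.30, adjusted p = 0.745), with overlapping ranges. The 3 brain comparisons share wild-type replicates 1 and 3, so their values are not independent of each other. Side by side, 1-1 stood at 73.2%, 112% and 97.7% of wild type in Phe11, Phe21 and Phe31 brain, and 3-1 at 169%, 108% and 69.9%. Whether these values differ between the knockout lines was not tested.

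In liver no initiator locus passed in any of the 3 comparisons by limma with the deposited scaling and all libraries. By edgeR and DESeq2, which scaled the recovered reads anew, 0 passed as well. By limma under other settings given below, 2 passed in Phe21 liver. The family had a median of 205 reads in a liver library and 575 in a brain library, although the deepest liver, Phe11 replicate 21, had 597. In Phe11 liver 12.1% of the 207 loci tested passed, and 0 of 5 members did, none with an unadjusted p under 0.05. The locus 1-1, lower in Phe11 brain, had 48.2, 51.5, 41.8 and 47.3 normalised reads in wild-type replicates 1, 3, 22 and 24 and 38.8, 48.9, 37.2 and 54.4 in Phe11 replicates 4, 6, 20 and 21. The groups overlapped, and the difference was -0.09 with a 95% interval from -0.40 to 0.23. The locus 3-1 had 0 to 3 reads in each of these 8 libraries, so a change of the size seen in brain could not be detected at this depth. Across the 5 members the differences ran from -0.09 to 0.29, and 0 had ranges that did not overlap, against 13% of loci. With wild-type replicates 1 and 22 averaged, the members' count stayed at 0.

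In Phe21 liver 13.4% of the 201 loci tested passed and 0 of 5 members did, although 2 members had an unadjusted p under 0.05. The locus 1-6 had 26.2, 18.2 and 23.9 normalised reads in wild-type replicates 1, 3 and 24 and 30.7, 32.2 and 37.7 in Phe21 replicates 7, 8 and 9, a difference of 0.55 ± 0.22 (limma, adjusted p = 0.0893). The locus 1-1 had 52.5, 56.0 and 52.4 against 69.8, 63.6 and 72.2, a difference of 0.35 ± 0.15 (adjusted p = 0.102). At both loci, and at 1-4 (74.5 ± 6.31 and 88.8 ± 5.46, adjusted p = 0.185), all Phe21 livers were above all wild-type livers. These 3 of 5 members compare with 31.3% of loci whose ranges did not overlap. The calls at 1-1 and 1-6 turned on the scaling and the model: by limma with TMM both passed (adjusted p = 0.0238 and 0.0333). By edgeR, which also took TMM factors, 0 members passed, and over all loci 11 were higher and 23 lower. By DESeq2 0 members passed, with 6 loci higher and 11 lower. In limma, TMM moved the median of all loci from 0.10 to 0.19. The calls went from 17 higher and 10 lower to 30 higher and 9 lower (39 of 201). The differences of both members moved by about as much as the median, to 0.43 at 1-1 and 0.63 at 1-6. The locus 1-6 also passed without wild-type replicate 1 (adjusted p = 0.0291), which leaves replicates 3 and 24, the pair closer than sampling noise, as the controls. With that pair averaged, 1-6 and 1-1 had adjusted p = 0.194 and 0.112. Replicate 24 was from batch 2 and all Phe21 livers from batch 1, and in a fit on the joint scale with all numbered wild-type livers and batch as a term they had adjusted p = 0.201 and 0.285. Both of these settings were chosen after seeing the data. The sum of the 9 loci was 232 ± 12.1 in wild type and 269 ± 0.670 in Phe21 (n = 3 each). The Phe21 sums came from 447, 341 and 257 reads, so their SD is under the counting error and is no measure of precision.

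In the livers labelled Phe31, which had 126 to 147 reads on the 9 loci, 10.7% of the 178 loci tested passed (3 higher and 16 lower, or 1 and 21 with TMM) and 0 of 5 members did, none with an unadjusted p under 0.05. The member differences ran from 0.01 at 1-1 to 0.35 at 1-6, with a lowest adjusted p of 0.431. The locus 1-4 had 47.4 ± 1.78 normalised reads in wild-type livers a to c and 56.7 ± 7.06 in those labelled Phe31, and was 1 of 5 members with ranges that did not overlap, against 23.6% of loci. The family took 2.64% to 2.90% of tRNA-locus reads in these 3 libraries and at most 2.51% in the other 29. The locus 2-1 had 3, 2 and 1 reads in the livers labelled Phe31 and 1, 0 and 0 in wild-type livers a to c, too few to compare.

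**Figure D5:**
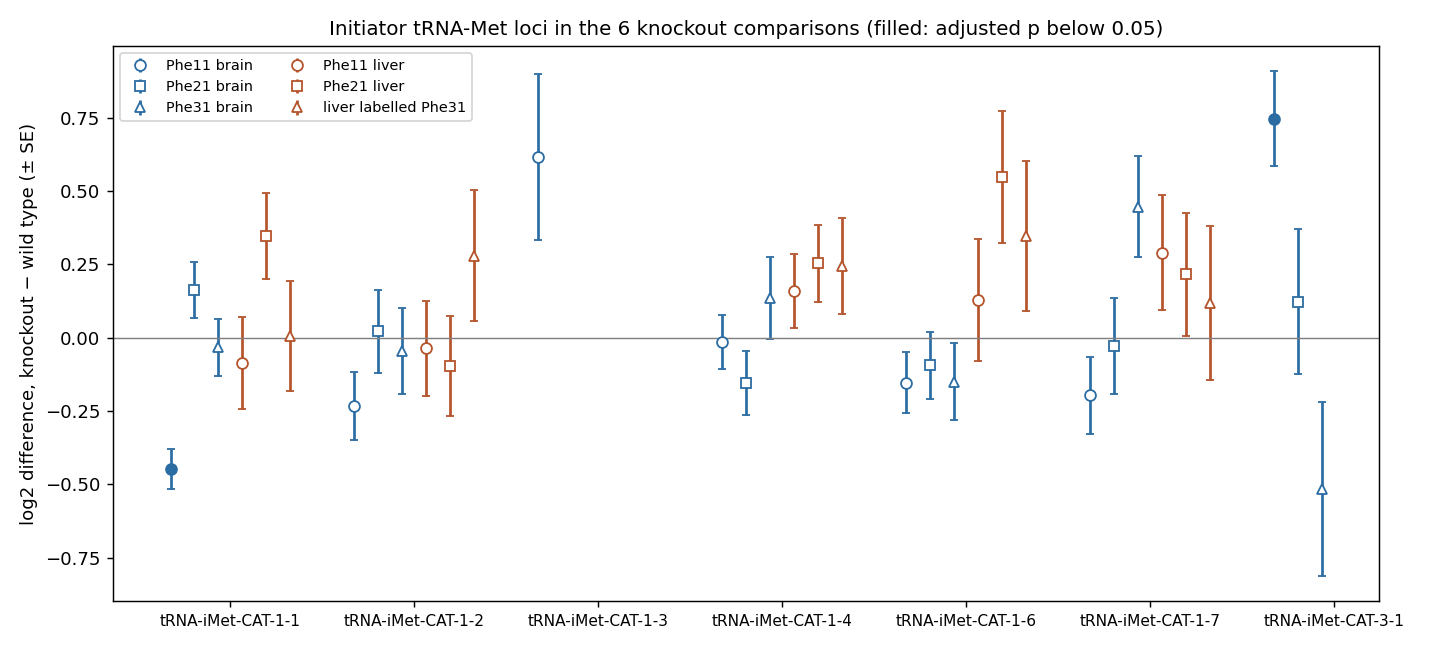
Log2 difference between knockout and wild type (y axis, ± SE) for each initiator locus tested (x axis) in the 6 comparisons, brain in blue and liver in orange. Filled symbols have an adjusted p below 0.05. Only 1-1 (-0.45) and 3-1 (0.75) in Phe11 brain were filled under the settings of the report.

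Whether a knockout's effect differed between the tissues was tested in 1 fit over both tissues on the joint scale. For Phe11, 9.72% of 247 loci had an effect that differed between brain and liver (17 higher and 7 lower, or 15 and 12 with TMM) and 0 of 6 members did, none with an unadjusted p under 0.05. The difference of effects at 1-1, brain minus liver, was -0.29 ± 0.15 (limma, adjusted p = 0.237, 95% interval from -0.60 to 0.02). The locus 3-1 is among the 6 only because of its level in brain. With 0 to 3 reads in each liver library it gave no measure of a difference between tissues, and its value is left out, which leaves 0 of 5 members. For Phe21, 7.73% of 233 loci passed and 0 of 5 members did, 2 with an unadjusted p under 0.05. The largest differences of effects were at 1-6 (-0.71 ± 0.24, adjusted p = 0.0757) and 1-4 (-0.47 ± 0.17, adjusted p = 0.0932). Both passed by limma with TMM (adjusted p = 0.0414 and 0.0467), which moved the median of all loci from -0.08 to -0.14. The calls went from 12 higher and 6 lower to 11 higher and 12 lower (23 of 231). By edgeR, which also took TMM factors, 0 members passed. The wild-type liver arm of this fit held only replicates 1 and 3. Without replicate 1 both also passed (adjusted p = 0.0102 and 0.0368), but that fit rests on 1 wild-type liver, which is assumed to vary like the libraries of the other groups.

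The 8 elongator methionine loci, tRNA-Met-CAT, were the nearest comparison by amino acid and codon. In the 3 brain comparisons 0 of the 6 tested passed in each. In Phe11 liver 1 of 5 passed, tRNA-Met-CAT-1-1, which fell by 0.45 ± 0.11 (limma, adjusted p = 0.000985). In the livers labelled Phe31 the same locus fell by 0.72 ± 0.14 (adjusted p = 2.75e-05) and was 1 of 3 tested. Between tissues, 2 of 5 passed in wild type and in Phe21: tRNA-Met-CAT-1-1 was lower in brain (it fell by 1.14 ± 0.08 in wild type, adjusted p = 8.75e-09) and tRNA-Met-CAT-2-1 was higher (0.81 ± 0.14, adjusted p = 9.62e-05). The reads of the initiator loci divided by those of the elongator loci gave 1.15 ± 0.0805 in wild-type brain (n = 5), 0.845 ± 0.0221 in the numbered wild-type livers (n = 3) and 0.977 ± 0.0440 in wild-type livers a to c (n = 3). It was 0.968 ± 0.0577 in Phe11 liver (n = 4) and 0.977 ± 0.0706 in Phe21 liver (n = 3). Both ranges (0.899 to 1.04 and 0.895 to 1.02) lay above that of the numbered wild-type livers (0.792 to 0.863). In the livers labelled Phe31 the ratio was 1.45 ± 0.217 (n = 3), also above the range of their own controls a to c (0.949 to 1.03). These differences were not tested.

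Outside the family, 3 loci had the pattern most like the summed initiator level over the 8 groups of tissue and genotype, by the root mean square difference of centred mean log2 levels among 234 loci with a mean of at least 10. They were tRNA-Glu-TTC-2-1 (0.0889), tRNA-Lys-TTT-1-4 (0.0924) and tRNA-Ala-AGC-4-2 (0.0986). The next locus was at 0.103 and the median locus at 0.349.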

How the data were processed

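ATAC-seq signal at tRNA loci was taken from the 6 deposited tables, and the members and gene lists were chosen with earlier results of these data known. Per the labels and the study's methods, the authors used Trim Galore 0.6.4 for trimming and Bowtie2 2.4.1 for alignment to GRCm38.p6, removed duplicates with Picard 2.23.8, kept primary alignments of high mapping quality and short nucleosome-free fragments, counted reads with featureCounts 2.0.0 over each tRNA gene and 50 nt on either side, and divided counts by DESeq2 1.30.0 size factors within each table. The deposited signal is therefore a scaled read count, and whole reads were recovered from it for all 401 loci (100% whole within 0.02 of a read). For 4 columns the separate check of whole reads needs more low values than they hold. The score in column 5 of the deposited peak lists, and the authors' tables of fold changes and p-values for loci and peaks, were not used. The limit of 3 reads for a count of 0 covers counting error only.

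Loci with a mean of at least 10 were tested on log2(value + 1) with limma 3.58.1 with trend in R 4.3.3, two-sided, adjusted by Benjamini-Hochberg over all loci tested. Each knockout was compared within its own table, with batch as a term for Phe11. Tissues were compared on reads scaled jointly over 228 loci with a read in all 32 libraries. Samples were grouped by label. The study describes its ATAC-seq samples as coming from separate mice. For the wild-type levels it names as many controls as there are wild-type brains and numbered wild-type livers. For the knockout comparisons it gives a smaller number, the same for each genotype, which equals the Phe21 and Phe31 libraries. This number is under the 4 Phe11 and 4 wild-type libraries of each tissue in the Phe11 comparisons. The labels tie no library to a mouse, so p-values measure the spread between libraries, pooled over loci by limma, part of which may be technical. Alternatives were pseudocounts of 0.1 and 10, a minimum mean of 30 or none, TMM scaling, edgeR 4.0.16 and DESeq2 1.42.0 on recovered reads, batch settings, averaged libraries and leaving out each library. All 9 members and, for the elongator list, only loci past the threshold were named. The fit was tested on simulated reads with known changes. Gene sequences came from GRCm39, annotation and gene starts from RefSeq on GRCm38.p6, and no position was converted between builds.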

Additional observations from a re-analysis of the deposited data

Results flagged for a closer look

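Of 33 sets of values tested with Dixon's ratio (the 9 loci, their sum and their share, in groups of 4 or 5 libraries), 2 held a library far from the others, and chance alone flags about 1 in 20. Both came from the same library, Phe11 liver replicate 21. Its 9 initiator loci summed to 367 jointly scaled reads, against 313 to 322 in Phe11 liver replicates 4, 6 and 20. They took 2.51% of its tRNA-locus reads, against 2.18% to 2.19% in those 3. It was also the deepest liver library, with 23754 reads over the 401 loci, and the part of depth in this value was not tested. Of the 11 fitted differences in effect between brain and liver at initiator loci, that of 3-1 in Phe11 gave no measure and is left out. None of the others passed an adjusted p of 0.05 under the settings of the report.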

How the results depend on the processing

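The counts of initiator loci past the threshold kept within 1.5 times of the reported count in all but 6 cases, and no called difference changed sign in any alternative. In Phe11 brain, 1 locus in place of 2 passed within batch 1 alone, where 3-1 was lost, and 2 to 3 passed with each library left out in turn. There 1-1 passed in 20 of 20 alternatives, at -0.48 to -0.36, and 3-1 in 19 of 20, at 0.58 to 0.82. In Phe21 liver, 2 loci in place of 0 passed with TMM scaling, and 0 to 1 with each library left out, the 1 being 1-6 without wild-type liver replicate 1. For the difference of Phe21 effects between tissues, 2 in place of 0 passed with TMM, and 0 to 2 with each library left out, the 2 again without wild-type liver replicate 1, where replicate 3 was the only wild-type liver and the spread came from the other groups. Between Phe21 brain and liver, 7 in place of 4 passed with no filter, where 9 loci were tested, and 4 to 5 with each library left out. Between the wild-type tissues, 6 passed with no filter and 3 within batch 2 alone. Of 979 alternative values of single loci, 42 changed sign, 0 of them called in either fit.

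Replicate numbers are shared by Phe21 brain and liver, by wild-type replicates 1 and 3, and by 1 library of each tissue of Phe11 (replicate 6), which alone allowed no pairing check. Deviations of same-numbered Phe21 libraries correlated at 0.124, 0.0980 and 0.114, each library best with its own number, and not all over 0.1, so the numbers were not taken to pair the samples. With the replicate block, 4 initiator loci passed between Phe21 tissues, as without it. Between wild-type replicates 1 and 3 the count was 4 with the block and 4 without.

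Over all loci the number past the threshold ran from 6 to 76 across alternatives in Phe11 brain (74 reported), 0 to 9 in Phe21 brain (0), 1 to 3 in Phe31 brain (2), 5 to 32 in Phe11 liver (25), 17 to 43 in Phe21 liver (27) and 1 to 22 in the livers labelled Phe31 (19). Most liver libraries were shallower than the brains, which limits their values, and for 1-3, 1-5, 2-1 and 3-1 in liver (0 to 10 reads a library) the reads were too few to compare genotypes.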
